A study of Mus musculus with 6 samples.

Results

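The genes described here carry out antigen presentation by MHC class I in the mouse. They are the heavy chains H2-K1, H2-D1, H2-T23 and H2-Q7, the light chain B2m, the peptide transporter subunits Tap1 and Tap2, the loading factor Tapbp, the peptide-trimming protease Erap1 and the transcriptional regulator Nlrc5. A probe set was taken as a reading of a gene when the platform's probe-gene table listed that gene and no other for it. By this rule 8 of the 10 genes had 25 probe sets among the 45037 on the array that were not manufacturer controls. H2-T23 and H2-Q7 had none, and they were reached only through probe sets listed for several genes.

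The arrays came from primary dermal fibroblasts of newborn B6 mice aged 0 to 2 days and of mixed sex, which were used at passage 4. Treated cultures (3) received 5 µM 5-aza-2'-deoxycytidine for 96 hours, renewed each 24 hours, and a further 24 hours in drug-free medium. This analogue of cytidine enters replicating DNA and depletes the maintenance methyltransferase, which lowers DNA methylation over cell divisions. Control cultures (3) were untreated. The explant cultures were made anew for each biological replicate, and 1 array was run per culture. These are early-passage outgrowths of whole dermis and not clonal lines.

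In MHC class I presentation, proteasomes and cytosolic peptidases cut proteins into peptides, and Tap1 with Tap2 carries the peptides into the endoplasmic reticulum. There Erap1 trims them, and Tapbp (tapasin) holds an empty heavy chain, paired with B2m, close to the transporter until a peptide binds. The loaded complex moves to the cell surface, where CD8 T cells read the peptide. In fibroblasts the genes are transcribed at a basal level and respond to interferon through promoter elements bound by NF-kappaB, IRF, and the RFX, CREB and NF-Y proteins that recruit Nlrc5.

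The promoters of 4 of the genes are shown, chosen with their log2 changes known. These were larger on the first pair and smaller on B2m, and Tap1 was not called. No difference between these changes could pass the permutation test given below. Whether promoter letters go with the changes was not tested. Each sequence is the 200 bases upstream of the most upstream RefSeq start, 5′ to 3′ on the strand of the gene, in assembly GRCm38.p6. Capitals mark exact matches, on either strand, to a kappa-B element (GGGATTCCC), part of an interferon response element (TTTCACTT), an X2 box (TGACG) and a Y box (ATTGG). No match overlapped another motif's.
H2-K1, chr17:34000348-34000547, minus strand: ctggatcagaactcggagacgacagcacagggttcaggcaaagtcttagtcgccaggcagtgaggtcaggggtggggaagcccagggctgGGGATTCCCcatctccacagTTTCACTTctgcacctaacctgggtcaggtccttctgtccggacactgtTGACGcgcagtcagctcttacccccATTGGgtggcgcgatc
H2-D1, chr17:35262894-35263093, plus strand: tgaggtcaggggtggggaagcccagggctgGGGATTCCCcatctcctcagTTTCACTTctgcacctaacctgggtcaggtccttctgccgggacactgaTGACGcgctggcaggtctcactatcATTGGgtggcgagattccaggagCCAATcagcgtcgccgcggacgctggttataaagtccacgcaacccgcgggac
B2m, chr2:122147487-122147686, plus strand: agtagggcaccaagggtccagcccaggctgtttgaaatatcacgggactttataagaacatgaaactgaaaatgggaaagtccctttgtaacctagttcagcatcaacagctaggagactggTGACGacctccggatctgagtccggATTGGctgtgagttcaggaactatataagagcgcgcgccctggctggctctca
Tap1, chr17:34187356-34187555, plus strand: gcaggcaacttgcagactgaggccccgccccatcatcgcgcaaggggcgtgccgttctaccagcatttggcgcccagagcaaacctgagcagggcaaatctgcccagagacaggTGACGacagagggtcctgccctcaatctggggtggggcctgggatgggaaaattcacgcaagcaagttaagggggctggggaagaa

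The spellings of these motifs were chosen after the windows of H2-K1 and H2-D1 had been read, so their matches there are a description. Full matches in H2-K1 and H2-D1, and fewer elsewhere, follow in part from this choice of letters. H2-K1 and H2-D1 held all 4 motifs in the same order on the gene's strand. Counted from the start, the kappa-B match began at -110 in H2-K1 and at -170 in H2-D1. The Y box on the gene's strand began at -16 in H2-K1 and at -76 in H2-D1. H2-D1 held a further Y box on the opposite strand at -53. The bases as far past the Y box of H2-K1 lie beyond its start and were not searched. In B2m the X2 box began at -78 and the Y box at -53, and in Tap1 an X2 box began at -86. Among 32851 windows of the same length, 0.213% held the kappa-B letters, 1.03% the interferon response letters, 15.7% the X2 letters and 29.3% the Y letters. All 4 were found together in 4 windows (0.0122%), and these belonged to 3 genes, H2-K1, H2-D1 and H2-Q7. Tapbp and H2-T23 held a Y box alone, and Erap1 held no match. The windows of the 8 genes in the table held between 4 and 12 CpG sites, within the quartiles of all windows (2 and 13, median 5). H2-D1 held 12, H2-K1, Tap1 and Tapbp 8 each, B2m 7, Erap1 and H2-Q7 6 each, and H2-T23 4. The windows of H2-K1 and H2-D1 cover different stretches around the motifs, so their counts are not like for like. Other spellings of the elements were not searched, so a window without a match can still hold such an element. Methylation of these windows was not analysed here, and a match marks letters and not binding.

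**Figure D1:**
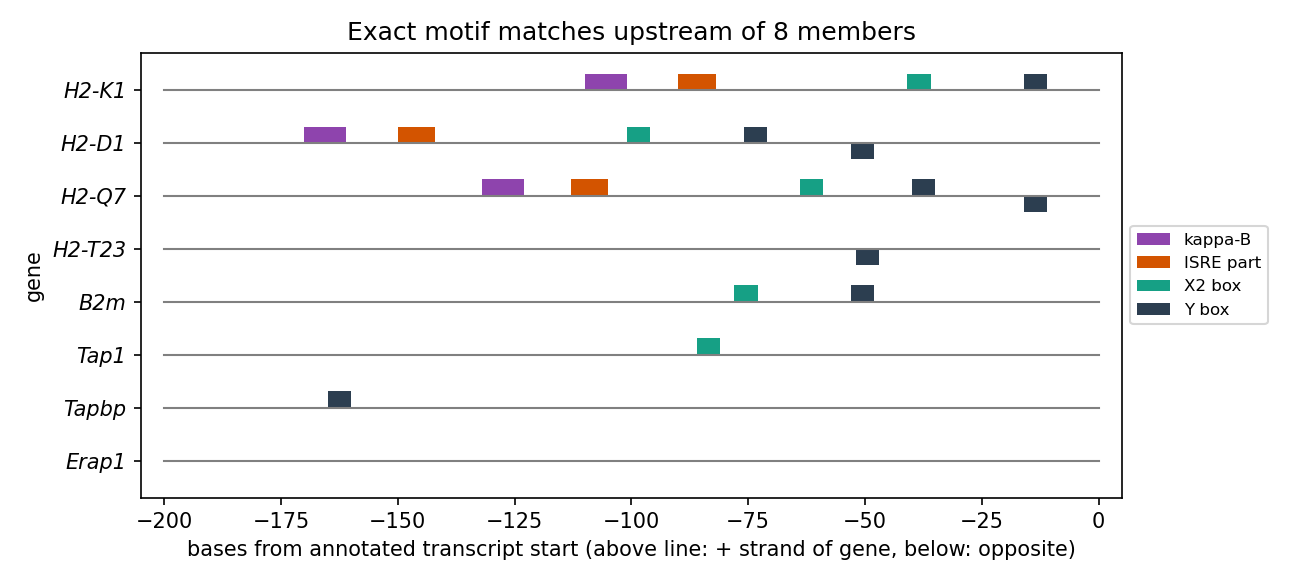
Positions of the 4 searched motifs in the 200 bases upstream of the RefSeq start, in bases from the start on the horizontal axis, with 1 row for each of the 8 genes that had a window. Exact matches to all 4 motifs are in H2-K1, H2-D1 and H2-Q7. B2m has matches to the X2 and Y boxes, Tap1 to an X2 box, Tapbp and H2-T23 to a Y box, and Erap1 to none. Other spellings were not searched.

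Signals are MAS5 intensities scaled so that every array had the same trimmed mean, and a log2 change is treated minus control on log2(signal + 9.66), which understates the change of dim probe sets. A probe set entered the test when 3 or more of the 6 arrays read it above their own median, and a change was called at a limma adjusted p under 0.05 over all 23388 tested probe sets. The deposited trimmed means were 149.2 to 209.4 on the treated arrays and 179.1 to 223.9 on the control arrays. Log2 signals of arrays within a group correlated at 0.967 to 0.970, and those of a treated and a control array at 0.925 to 0.935. The ratio of 3′ to 5′ signal of the Actb control probe sets, a sign of RNA quality, was 1.16 ± 0.0191 on treated arrays and 1.26 ± 0.0101 on control arrays (SD, n = 3 each; exact permutation p = 0.1, two-sided). For Gapdh it was 0.764 ± 0.0242 on treated arrays and 0.739 ± 0.0155 on control arrays (exact permutation p = 0.2), and 0.1 is the smallest p that 3 against 3 allows. The part of RNA quality in the results below was not tested. Fibroblast markers such as Vim and Col1a1 were above the median on all 6 arrays, but 7 of 10 tested fibroblast markers were called lower, as given below.

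The heavy chains H2-K1 and H2-D1 and the light chain B2m were higher in treated fibroblasts, and Tap1, Tap2, Tapbp and Erap1 did not pass the test. Each gene was represented by its brightest tested probe set, which left 7 genes. Of these, H2-K1, H2-D1 and B2m rose and none fell, where 19.5% of all 12194 tested genes were called higher, 21.6% lower and 41.1% either way. The share of the 7 that was called (42.9%) therefore lay near that of all genes. The median log2 change of the 7 was 0.26, beside -0.0032 over all tested genes. By probe set, 15 of the 25 were tested, 10 were called higher by limma and 0 lower (0 also at an unadjusted p under 0.05), where 38.7% of all tested probe sets were called, 18.4% higher and 20.3% lower. Treated and control arrays did not overlap on 11 of the 15 probe sets (50.4% of all tested) and on 4 of the 7 genes (52.5% of all tested). In a culture measured as a whole, a change in the number of cells that carry a transcript and a change in its amount per cell cannot be told apart.

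H2-K1 encodes a classical heavy chain, whose groove holds the peptide. Its brightest probe set (1425336_x_at) read 1649, 1517 and 1860.5 on the treated arrays, against 963, 996 and 769 on the control arrays. Every treated array stood above every control array, with a gap wider than the range of either group. The mean was 1676 ± 173 in treated and 909 ± 123 in control cultures (SD, n = 3 each), a log2 change of 0.88 ± 0.117 (SE; 95% interval 0.62 to 1.14; limma adjusted p = 0.000311), or 1.84-fold. A second probe set (1451931_x_at) read 1415, 1178 and 1487 on the treated arrays, against 857, 688 and 558 on the control arrays, again without overlap (log2 change 0.96 ± 0.151, SE; limma adjusted p = 0.000840).

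The remaining H2-K1 probe sets were dimmer and had smaller log2 changes. On 1450534_x_at the treated arrays read 208, 228 and 268, and the control arrays 158, 127 and 151. On 1427746_x_at the treated arrays read 221, 215 and 267, and the control arrays 185, 164 and 136. The groups stayed apart on both, but by less than the range of the treated readings. Their log2 changes were 0.66 ± 0.143 and 0.51 ± 0.149 (SE; limma adjusted p = 0.00533 and 0.0222). The smaller one lost its call without treated replicate 3 (0.42; limma adjusted p = 0.0827) or control replicate 3 (0.40; limma adjusted p = 0.0678). With the deposited signals left unscaled their log2 changes were 0.58 and 0.44, and neither was called (limma adjusted p = 0.116 and 0.274). Thus all 4 H2-K1 probe sets rose, by log2 changes between 0.51 and 0.96.

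H2-D1 encodes the other classical heavy chain that has probe sets listed for it alone. Its brightest probe set (1425545_x_at) read 2059.9, 1803 and 2463 on the treated arrays, against 1208, 1343 and 1026 on the control arrays. No control array reached the lowest treated one. The mean was 2109 ± 333 in treated and 1193 ± 159 in control cultures (SD, n = 3 each), with a log2 change of 0.81 ± 0.131 (SE; 95% interval 0.52 to 1.11; limma adjusted p = 0.000969), or 1.77-fold.

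The one tested H2-D1 probe set without the suffix for shared probes (1426324_at) read 176, 199 and 211 on the treated arrays, against 96.1, 78.8 and 59.3 on the control arrays. Here the lowest treated reading was well above the highest control reading. The mean was 195 ± 17.4 in treated and 78.0 ± 18.4 in control cultures, and the log2 change of 1.24 ± 0.184 (SE; 95% interval 0.83 to 1.66; limma adjusted p = 0.000589) came to 2.50-fold. On 1451683_x_at the treated arrays read 718, 638 and 821, and the control arrays 374, 313 and 249.8 (log2 change 1.20 ± 0.151, SE; limma adjusted p = 0.000218). On 1451784_x_at the treated arrays read 1987, 1548 and 1879, and the control arrays 1056, 1062 and 831 (log2 change 0.87 ± 0.124, SE; limma adjusted p = 0.000475). All 4 tested H2-D1 probe sets rose without overlap between the groups. The other 5 lay under the median on all 6 arrays and were not tested, and their log2 changes were between -0.49 and 0.30.

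Of the 13 probe sets for H2-K1 or H2-D1, 11 carry the suffix _x_at, with which the manufacturer marks probes that can bind transcripts of other genes. The 8 that were tested all rose. All of these but 1426324_at carry the suffix, so they are not separate readings, and signal from other heavy chain genes cannot be told apart in them. A further probe set (1424948_x_at) is listed for both H2-K1 and H2-D1. It read 271, 239 and 262 on the treated arrays, against 204, 153 and 141 on the control arrays, without overlap. It too rose (log2 change 0.62 ± 0.150, SE; limma adjusted p = 0.00949). Without scaling the change was 0.54 and was not called (limma adjusted p = 0.149).

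B2m encodes beta-2 microglobulin, the light chain that all classical class I molecules share. Its brightest probe set (1449289_a_at) read 9404, 8199 and 9819 on the treated arrays, against 6622, 6510.4 and 7676 on the control arrays. The groups did not overlap, though the lowest treated and highest control readings lay close. The mean was 9141 ± 841 in treated and 6936 ± 643 in control cultures (SD, n = 3 each), a log2 change of 0.40 ± 0.0958 (SE; 95% interval 0.18 to 0.61; limma adjusted p = 0.00897), or 1.32-fold. The other probe set (1452428_a_at) read 7549, 6263 and 7309.6 on the treated arrays, against 5630.4, 5518 and 5902 on the control arrays. It rose by 0.30 ± 0.0862 on the log2 scale (SE; limma adjusted p = 0.0196), or 1.24-fold, but lost its call without treated replicate 1 or 3 or control replicate 1 or 2 (limma adjusted p between 0.0522 and 0.0739). With the deposited signals left unscaled, the B2m probe sets had log2 changes of 0.32 and 0.23, and neither was called (limma adjusted p = 0.159 and 0.396).

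**Figure D2:**
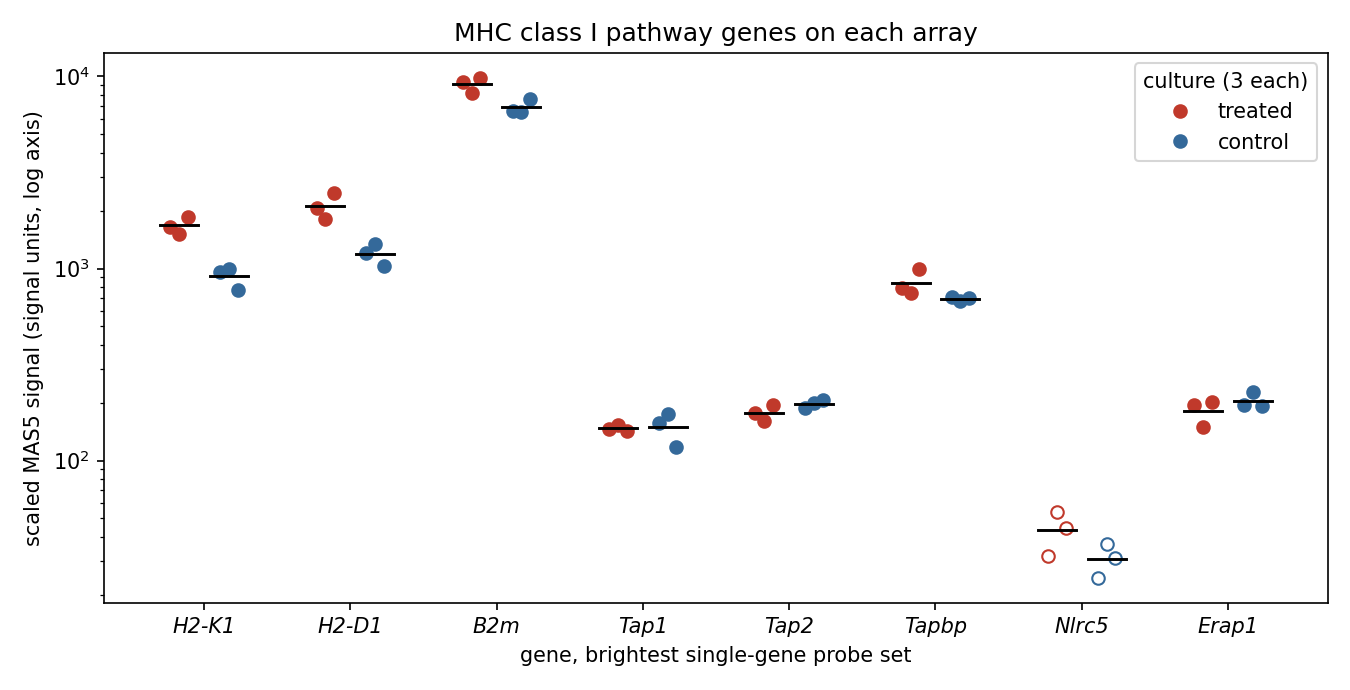
Scaled MAS5 signal on a log axis for the brightest single-gene probe set of each gene, with points for the 3 treated arrays left of points for the 3 control arrays and a bar at each group's mean. Treated and control points are apart for H2-K1, H2-D1, B2m and Tapbp, and they overlap for Tap1, Tap2, Erap1 and the untested Nlrc5 (open points).

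Among the genes for peptide transport, Tap1, a subunit of the transporter that spans the endoplasmic reticulum membrane, had 4 probe sets of which 1 was tested. That probe set (1416016_at) read 146, 153 and 142 on the treated arrays, against 157, 175 and 118 on the control arrays. The treated readings all fell within the control range. The log2 change was -0.0079 ± 0.162 (SE; 95% interval -0.37 to 0.36; limma adjusted p = 0.975), so a change of the size seen in H2-K1 lay outside the interval. The other 3 Tap1 probe sets were under the median on every array, with log2 changes between -0.28 and -0.05. Tap2, the partner subunit, read 176, 161 and 196 on the treated arrays, against 189, 198 and 207 on the control arrays. The groups overlapped, and the log2 change of -0.15 ± 0.124 (SE; 95% interval -0.43 to 0.13) was not called (limma adjusted p = 0.373).

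Tapbp gave different readings on its probe sets. The brighter one (1421812_at) read 791, 743 and 991 on the treated arrays, against 710.1, 675 and 701 on the control arrays. All treated arrays were above all control arrays, most of all treated replicate 3, but the log2 change of 0.26 ± 0.112 (SE; 95% interval 0.01 to 0.51) did not pass (limma adjusted p = 0.0941). The dimmer one (1450378_at) read 298, 268 and 340.2 on the treated arrays, against 280.1, 328 and 299.5 on the control arrays. There the groups overlapped, and the log2 change was -0.0070 ± 0.121 (SE; limma adjusted p = 0.971).

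Erap1, the aminopeptidase that shortens peptides in the endoplasmic reticulum, read 194, 149 and 202 on the treated arrays, against 195, 228 and 192 on the control arrays (1416942_at). The groups overlapped, and the log2 change was -0.17 ± 0.147 (SE; 95% interval -0.50 to 0.16; limma adjusted p = 0.399). Its other probe set (1439068_at) was too dim to be tested and read 27.5, 10.5 and 33.9 on the treated arrays, against 30.0, 49.6 and 45.4 on the control arrays.

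Nlrc5, the transactivator of class I promoters, had 1 probe set (1437176_at), which was under the median on all 6 arrays and was not tested. It read 31.7, 53.9 and 44.7 on the treated arrays, against 24.6, 36.7 and 31.0 on the control arrays. The groups overlapped, and its log2 change of 0.38 did not pass when all probe sets were tested without the filter (limma adjusted p = 0.478). None of the 10 untested probe sets of these genes passed that test.

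H2-T23 encodes the non-classical molecule Qa-1, which presents leader peptides to natural killer cells, and H2-Q7 encodes a Qa-2 molecule. The brighter probe set listed for H2-T23 and another gene (1449556_at) read 602, 322 and 625 on the treated arrays, against 547, 647 and 635 on the control arrays. Treated replicate 2 stood far under the other arrays, and the log2 change of -0.29 ± 0.219 (SE; limma adjusted p = 0.336) became 0.013 without it. The probe set listed for H2-Q7 and H2-Q9 (1418536_at) read 48.2, 56.3 and 80.6 on the treated arrays, against 37.5, 26.2 and 14.0 on the control arrays. The groups did not overlap, but it exceeded the median on 1 array and so was not tested, and its log2 change of 1.03 did not pass without the filter (limma adjusted p = 0.0751). A probe set listed for H2-K1 and H2-Q5 (1451593_at) read 79.3, 79.5 and 109 on the treated arrays, against 117, 119 and 108 on the control arrays. It was not called, and its log2 change of -0.34 ± 0.177 (SE; limma adjusted p = 0.161) ran opposite to those of the single-gene H2-K1 probe sets.

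**Figure D3:**
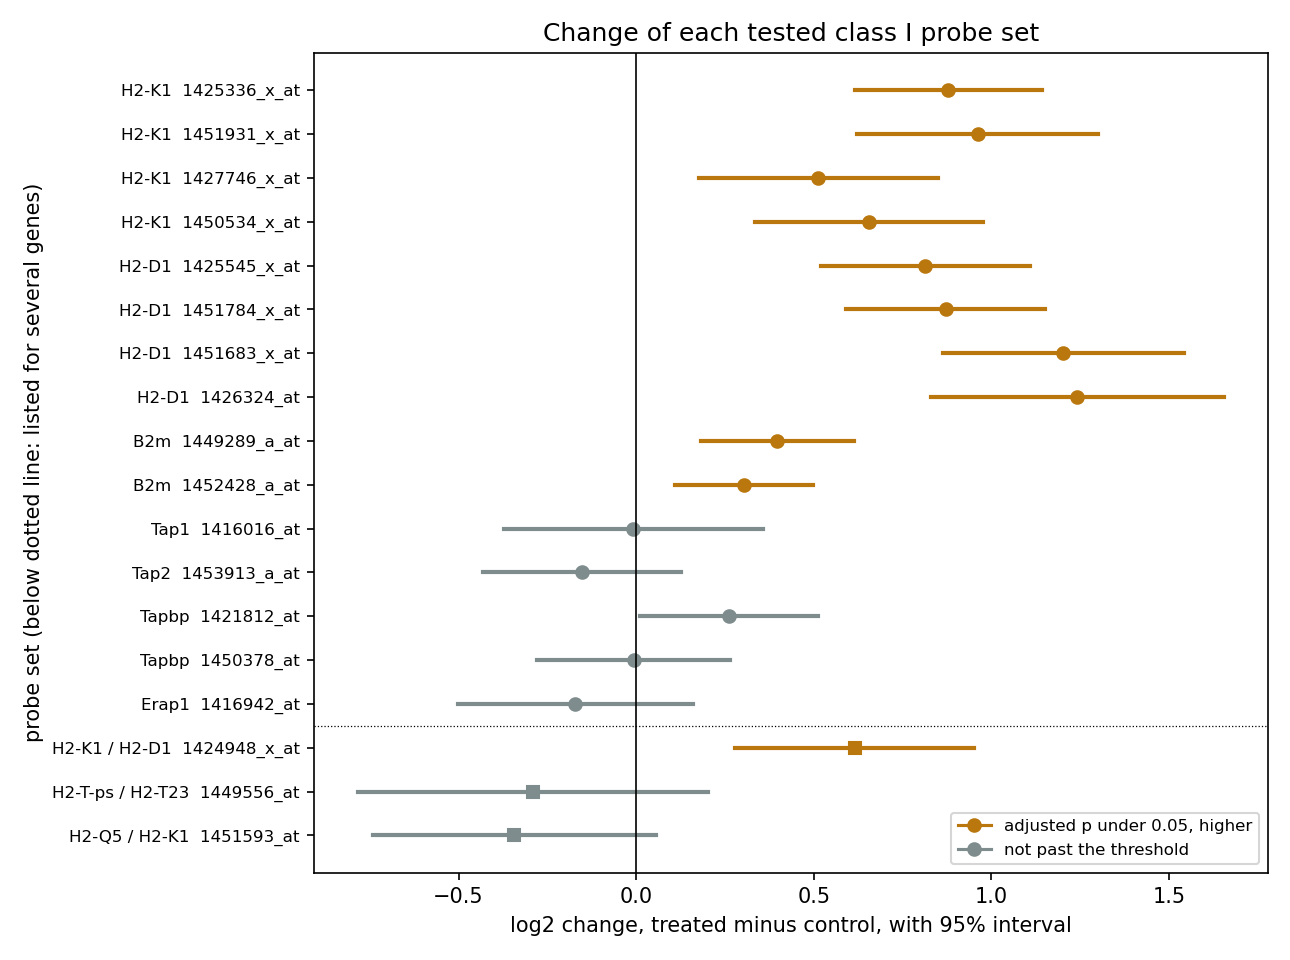
Log2 change, treated minus control, of each tested probe set with its 95% interval, by gene, with probe sets listed for several genes as squares under the dotted line. The 8 tested H2-K1 and H2-D1 probe sets and both B2m probe sets lie above 0, and the intervals of Tap1, Tap2, Erap1 and the dimmer Tapbp probe set include 0.

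Whether the genes changed by different amounts was tested on single values with an exact permutation test, in which no difference could pass. In 8 comparisons of one gene's log2 signal with another's on the same arrays, the change of H2-K1 exceeded that of B2m by 0.48 ± 0.194 and that of H2-D1 exceeded it by 0.42 ± 0.196 (SE; exact permutation p = 0.1 for each, two-sided, 0.133 after Benjamini-Hochberg adjustment over the 8). H2-K1 exceeded Tap1 by 0.89 ± 0.122, Tap2 by 1.03 ± 0.147, Tapbp by 0.62 ± 0.134 and Erap1 by 1.05 ± 0.112, each with the same p and without overlap between the groups. The difference between H2-K1 and H2-D1 was 0.065 ± 0.0552, and B2m exceeded Tap1 by 0.41 ± 0.257 (SE; exact permutation p = 0.2 for each, and 0.2 adjusted). The H2-K1 and H2-D1 probe sets compared here both carry the suffix _x_at and are not separate readings. The lowest treated reading came from treated replicate 2 for 6 of the 7 tested genes, with Tap1 the exception.

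Over the 6 arrays, the genes outside the set whose centred log2 signals lay closest to those of H2-K1 were Septin3 at a Euclidean distance of 0.0626, Ada at 0.135, Ptgr1 at 0.139, Des at 0.144 and Tgfb1 at 0.151. H2-D1 stood next at 0.157, at rank 6 of all genes, and B2m stood at rank 1736 with 0.757. The profile of H2-D1 was thus near that of H2-K1, and the profile of B2m was not among the nearest. Both heavy chain probe sets carry the suffix _x_at, so shared probes can bring their profiles together. The log2 changes of the 5 genes outside the set were between 0.81 and 0.99, a likeness to H2-K1 that follows from their choice by distance.

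H2-K1, H2-D1, Tap1, Tap2, Tapbp, H2-T23 and H2-Q7 lie on chromosome 17, B2m on chromosome 2, Nlrc5 on chromosome 8 and Erap1 on chromosome 13. RefSeq lists 118 genes outside the set between H2-K1 and H2-D1, of which 47 were tested. Among the 47 tested, 5 were called higher and 10 lower (31.9%), beside 41.1% of all tested genes, 19.5% higher and 21.6% lower. The 5 were Brd2 (log2 change 0.65), Rnf5 (0.41), Agpat1 (0.86), Clic1 (0.44) and Bag6 (0.45), and among the 10 was Ddah2 (-1.41). These 6 were singled out after their values were seen. A gene inside the interval that was not called is not shown to be unchanged, and a change shared over the interval was not tested.

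Other heavy chains and class I-like molecules were called at a share near that of all genes. Of 38 listed genes 9 were tested, and of these 1 rose and 2 fell (33.3% called, beside 41.1% of all tested genes), with a median log2 change of 0.07. Fcgrt, the neonatal Fc receptor, which also pairs with B2m, read 431, 354 and 471 on the treated arrays, against 858, 908 and 1039 on the control arrays. It fell (log2 change -1.15 ± 0.122, SE; limma adjusted p = 7.79e-05), and so did Hfe, which binds the transferrin receptor (-0.82 ± 0.142, SE; limma adjusted p = 0.00146). Both were thus lower in the same cultures in which their light chain was higher. H2-T3, the thymus leukaemia antigen, was called higher (log2 change 0.69 ± 0.209, SE; limma adjusted p = 0.0273). The call of this H2-T3 probe set was lost without treated replicate 2 or 3 or control replicate 2 or 3 (limma adjusted p between 0.0621 and 0.101). Without control replicate 1 the count of class I-like genes called higher was also 0. H2-M3, which presents formylated peptides, averaged 219 ± 12.2 in treated and 201 ± 10.4 in control cultures and was not called (limma adjusted p = 0.440).

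In the supply of peptides, the constitutive catalytic subunits of the proteasome, Psmb5, Psmb6 and Psmb7, were called higher in treated cultures. Their interferon-inducible counterparts Psmb8, Psmb9 and Psmb10 were not called, and the difference between the 2 groups of subunits was not tested. Of 19 listed genes 17 were tested, and of these 8 rose and 2 fell (58.8% called, beside 41.1% of all tested genes), and the median log2 change was 0.30. Psmb5, a catalytic subunit, read 2951, 2801 and 2819 on the treated arrays, against 1892, 1938 and 2047 on the control arrays, with a clear gap between the groups. It rose (log2 change 0.54 ± 0.0714, SE; limma adjusted p = 0.000289), as did the catalytic subunits Psmb7 (0.53 ± 0.0760; limma adjusted p = 0.000464) and Psmb6 (0.36 ± 0.0731; limma adjusted p = 0.00378). Psme3, a nuclear proteasome activator, also rose (0.61 ± 0.121, SE; limma adjusted p = 0.00332). Without scaling of the arrays, none of the 17 was called higher.

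The immunoproteasome subunits overlapped between the groups. Psmb8 read 105, 62.7 and 149 on the treated arrays, against 115, 123 and 138 on the control arrays (log2 change -0.30; 95% interval -0.88 to 0.29). Psmb9 read 10.6, 69.1 and 72.7 on the treated arrays, against 51.2, 73.5 and 53.4 on the control arrays (-0.43; 95% interval -1.55 to 0.70). Psmb10 read 222, 232 and 231 on the treated arrays, against 257, 258 and 213 on the control arrays (-0.08; 95% interval -0.34 to 0.19). None was called (limma adjusted p between 0.411 and 0.641). The interval of Psmb9 includes a change as large as that of Psmb5, and the intervals of Psmb8 and Psmb10 end under it. Psme1, a subunit of the interferon-inducible proteasome activator, read 692, 556 and 733 on the treated arrays, against 992, 974 and 887 on the control arrays, and it fell (-0.53 ± 0.113, SE; limma adjusted p = 0.00475). Without scaling its change was -0.60 and was not called (limma adjusted p = 0.0522). Blmh, a cytosolic peptidase, fell too (-1.55 ± 0.250, SE; limma adjusted p = 0.000987). Psme2 was not analysed here.

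Among 14 tested genes for folding and loading in the endoplasmic reticulum, 4 rose and 1 fell (35.7% called, beside 41.1% of all tested genes), with a median log2 change of 0.10. Prkcsh, the beta subunit of glucosidase II, averaged 1073 ± 98.7 in treated and 735 ± 75.7 in control cultures (SD, n = 3 each; log2 change 0.54 ± 0.105, SE; limma adjusted p = 0.00287). Bcap31, which escorts class I molecules, rose by 0.39 ± 0.0739 (SE; limma adjusted p = 0.00245). The chaperone calreticulin (Calr) rose by 0.26 ± 0.0667 (SE; limma adjusted p = 0.0119). Calnexin (Canx) averaged 5376 ± 349.6 in treated and 4550.2 ± 244 in control cultures and was called (0.24 ± 0.0796, SE; limma adjusted p = 0.0387), but not without treated replicate 1 or 3 or any one control replicate (limma adjusted p between 0.0617 and 0.137). Pdia3, the disulphide isomerase of the loading complex, averaged 5279 ± 309 in treated and 5252 ± 234 in control cultures, with a log2 change of 0.0068 (95% interval -0.16 to 0.18). Tapbpl, which edits peptides outside the loading complex, was not called either (-0.17; 95% interval -0.60 to 0.26). Ssr1, a translocon-associated protein, was called lower (-0.37 ± 0.107, SE; limma adjusted p = 0.0208), but not without treated replicate 2 or 3 or control replicate 1 or 2 (limma adjusted p between 0.0524 and 0.0687). Without scaling, none of the 14 was called.

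**Figure D4:**
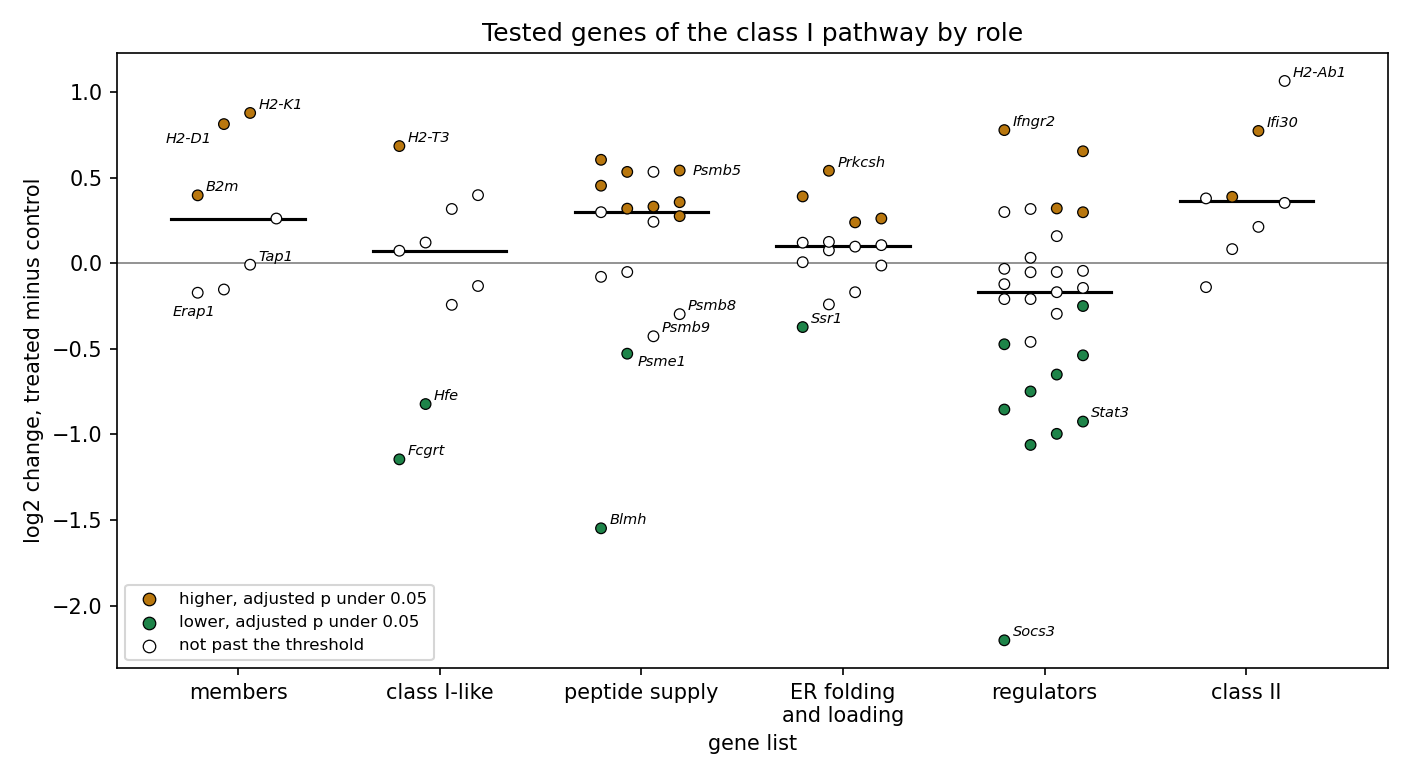
Log2 change, treated minus control, of every tested gene in the lists for class I-like molecules, peptide supply, folding and loading, regulators and class II, with filled points for called genes and bars at each list's median, beside the 7 tested of the 10 genes described here (members). In the peptide supply list 8 of 17 genes were called higher and 2 lower, and in the regulator list 4 of 29 higher and 10 lower. Of all tested genes 19.5% were called higher and 21.6% lower.

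Regulators of class I transcription were also called at a share near that of all genes. Of 37 listed genes 29 were tested, and of these 4 rose and 10 fell (48.3% called, beside 41.1% of all tested genes, 19.5% higher and 21.6% lower), with a median log2 change of -0.17. Rfx5, a subunit of the complex that binds the X1 box of class I promoters, averaged 148 ± 4.29 in treated and 219.6 ± 16.8 in control cultures (SD, n = 3 each) and fell (log2 change -0.54 ± 0.121, SE; limma adjusted p = 0.00625). Without scaling its change was -0.61 and was not called (limma adjusted p = 0.0989). Creb1, which can bind the X2 box, averaged 202 ± 54.7 in treated and 423 ± 25.8 in control cultures and fell (-1.06 ± 0.167, SE; limma adjusted p = 0.000851). Stat3, a transcription factor activated by cytokine receptors, fell (-0.92 ± 0.0806, SE; limma adjusted p = 2.24e-05). The kinase Jak2, which acts at such receptors, fell and averaged 396 ± 18.4 in treated and 801 ± 43.9 in control cultures (limma adjusted p = 2.53e-05). Socs3, an inhibitor of this signalling, averaged 278 ± 31.0 in treated and 1371 ± 529 in control cultures (-2.20 ± 0.222, SE; limma adjusted p = 5.55e-05). Ifngr2, a chain of the interferon-gamma receptor, rose and averaged 473 ± 33.9 in treated and 274 ± 46.5 in control cultures (0.78 ± 0.135, SE; limma adjusted p = 0.00152).

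The other 3 regulators called higher were Irf1, Rela and Irf8, and their calls were less firm. Irf1, an activator that binds interferon response elements, averaged 508 ± 53.8 in treated and 409.9 ± 16.7 in control cultures (SD, n = 3 each; log2 change 0.30 ± 0.103, SE; limma adjusted p = 0.0454). It lost its call without treated replicate 1 or 3 or any one control replicate (limma adjusted p between 0.0655 and 0.153). Rela, the NF-kappaB subunit p65, was at 0.32 ± 0.106 (SE; limma adjusted p = 0.0382) and lost its call without treated replicate 2 or 3 or control replicate 1 or 2 (limma adjusted p between 0.0701 and 0.131). Irf8 was at 0.66 (limma adjusted p = 0.0411) and lost its call without any one control replicate (limma adjusted p between 0.0552 and 0.105). It entered the test through the treated arrays alone, since it failed the filter when any treated array was left out. Its place among the genes called higher thus depends on the filter, and without the filter Irf8 was not called. The count of regulators called higher was 1 without treated replicate 3, control replicate 1 or control replicate 2, and 2 without control replicate 3. Ciita was too dim to be tested.

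Markers of other cell types were read beside these results, since leukocytes and endothelium carry much class I. Of all tested genes 41.1% were called, 19.5% higher and 21.6% lower. Of 16 leukocyte markers 8 were tested, and Cd68 alone was called higher (12.5%), at 113 ± 7.46 in treated and 50.5 ± 19.9 in control cultures (SD, n = 3 each; limma adjusted p = 0.00703). The summed signal of the leukocyte list was 1313 to 1539 on treated arrays and 1071 to 1208 on control arrays, and Ptprc, Cd3e, Itgam, Cd52 and Coro1a were under the median on all 6 arrays. Of 4 tested endothelial markers 2 rose and 1 fell (75% called). The endothelial list summed to 401.9 to 487 on treated arrays and 285 to 362 on control arrays. Of 3 tested keratinocyte markers Dsp alone rose (33.3% called). The keratinocyte list summed to 385 to 597 on treated arrays and 200.04 to 304 on control arrays. Of 10 tested fibroblast markers 2 rose (Fn1 and S100a4) and 7 fell (90% called), with a median log2 change of -1.24. The fibroblast list summed to 38380.1 to 45318 on treated arrays and 61977 to 68901 on control arrays. The part of cell composition in the higher H2-K1, H2-D1 and B2m signals was not tested.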

How the data were processed

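Total RNA of 6 cultures, 3 treated and 3 control, was hybridised to 1 Affymetrix array each. The deposited values are linear MAS5 signal intensities per probe set, made by the authors with MAS5 per the submitters' processing notes. The MAS5 version was not given in the sources used here, nor were detection calls. The deposited arrays differed in their 2% trimmed mean, so each was scaled to the common value of 193.2, and log2(signal + 9.66) was analysed, the pseudocount being 0.05 of that value. The 64 control probe sets were left out, and a probe set was tested if above its array's median on at least 3 of 6 arrays. The filter keeps probe sets bright in 1 group alone, and low signal and background were not told apart. Precision is limited by the 3 arrays a group.

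The test of treated against control was limma 3.58.1 in R 4.3.3 (lmFit and eBayes with intensity trend, two-sided, Benjamini-Hochberg over 23388 probe sets). On simulated data with 45037 probe sets, of which 200 were changed, the same steps recovered 20.6% of 1.5-fold, 53.1% of 2-fold and 86.5% of 4-fold changes, with 4.83% of calls false. In the real data 9040 probe sets were called. The adjustment depends on the share that changes, so these rates are not those of the real data. Gene names come from the platform's probe-gene table, in which 34945 probe sets name 1 gene, 932 several and 9160 none. Of these, 34741 matched a RefSeq gene by Entrez identifier. A gene was represented by its brightest tested probe set. Promoter windows come from RefSeq (GRCm38.p6). They were found for 8 of the 10 genes, and the array's own coordinates were not used.

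The genes, lists and motifs were chosen with earlier results of these data known. Besides the 10 genes, the text names in each list up to 4 genes called in each direction with the smallest p, a fixed set of well-known pathway genes whatever their values, and the 5 genes closest to H2-K1 over the arrays. Lists other than the 10 genes covered class I-like molecules, peptide supply, folding and loading, regulators, class II, and markers of leukocytes, endothelium, keratinocytes and fibroblasts. A shared replicate number is not said to mark a shared explant, so the numbers were not taken as pairs in the main test. Deviations of same-numbered arrays correlated at 0.186, 0.172 and 0.0720, and those of differently numbered arrays at -0.149 to -0.0218. Equal numbers may therefore mark related cultures, and a replicate block was run as an alternative. The alternatives were other scalings, pseudocounts and filters, a replicate block, no intensity trend, another representing probe set, and leaving out each array.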

Additional observations from a re-analysis of the deposited data

How the results depend on the processing

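The 3 genes called higher (H2-K1, H2-D1 and B2m) were 3 under all alternatives except no scaling, where B2m was lost and 2 were left, and no gene of the set was called lower under any. Over 14 alternatives the log2 change of H2-K1 lay between 0.76 and 0.95 and that of H2-D1 between 0.70 and 0.92. Of 140 repeats of the 10 called probe sets, 128 kept direction and call and 12 lost the call. The probe sets called over the whole array numbered 5019 without scaling, against 9040, and 7234 to 7660 with 1 array left out. Without scaling the median change of all tested probe sets moved to -0.07.

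With no scaling, the genes called higher numbered 0 in the class I-like, peptide supply and folding lists and 1 among regulators, and those called lower 1 in peptide supply and 0 in folding. With quantile normalization or without the intensity trend 2 folding genes were called higher, and without the trend 0 were lower. Without the filter 0 class I-like genes and 1 regulator were called higher, and without the trend 2 regulators were. With 1 array left out, the genes called higher were 0 to 1 class I-like, 6 to 9 in peptide supply, 3 to 4 in folding and 1 to 3 regulators, and 0 to 1 folding genes were lower.

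Uncalled values that changed sign with quantile normalization were Tap1 (0.038), the dimmer Tapbp probe set (0.055) and Pdia3 (-0.12), and Pdia3 did so unscaled (-0.069). With 1 array left out, values that changed sign ranged from -0.16 to 0.11 for Tap1, -0.094 to 0.074 for that Tapbp probe set, -0.46 to 0.013 for the H2-T23 probe set, -0.56 to 0.0030 for Psmb8, -0.51 to 0.24 for Psmb9 and -0.039 to 0.043 for Pdia3. The cause was not tested. With the replicate block 9541 probe sets were called, and each array correlated best with its own number. The block gave 3 genes of the set higher and 0 lower, and of the named genes it ended the call of Canx (limma adjusted p = 0.0619).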

Other observations

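The class II pathway, which presents peptides from endosomes and is best known in specialised cells, was read beside class I. Of 8 tested genes of 13 listed, 2 rose and 0 fell by limma (0 also at an unadjusted p under 0.05; 25% called, against 41.1% of all tested genes), and the median log2 change was 0.37. Ifi30, a thiol reductase of endosomes, averaged 1172 ± 113 in treated and 683 ± 88.1 in control cultures (SD, n = 3 each), with a log2 change of 0.77 ± 0.115 (SE; limma adjusted p = 0.000595). Cathepsin L (Ctsl), a lysosomal protease, averaged 8007 ± 509.6 in treated and 6113 ± 402 in control cultures and rose by 0.39 ± 0.0811 (SE; limma adjusted p = 0.00420). The class II chain H2-Ab1, which the naming rule above does not cover, had a log2 change of 1.07 and did not pass (limma adjusted p = 0.0818). It read 82.6, 68.8 and 99.4 on the treated arrays, against 53.0, 10.7 and 57.8 on the control arrays, so control replicate 2 adds to the change. Other class II chains had smaller changes and were not called either, with H2-Eb2 at 0.38, H2-DMa at 0.35, H2-DMb2 at 0.21 and H2-Eb1 at -0.14.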
